A study of Mus musculus with 12 samples.

Results

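The genes described here are the 34 subunits of the constitutive proteasome, taken by gene symbol from a list made by function and not by a threshold on their values. They are 34 of the 21743 genes in the count table, and each of them was found there. They comprise 7 alpha subunits (Psma1 to Psma7) and 7 beta subunits (Psmb1 to Psmb7) of the core particle, 6 ATPases (Psmc1 to Psmc6) and 11 further subunits (Psmd genes) of the regulatory particle, and 3 activator genes (Psme1, Psme2, Psme3). The inducible immunoproteasome subunits were kept apart as a list of other pathway genes.

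RNA was counted in single cells by Drop-seq, in which a barcoded bead captures the polyadenylated RNA of 1 cell in a droplet and each molecule receives a unique molecular identifier (UMI). The 12 libraries came from 2 mice carrying MMTV-Cre and Brca1flox/flox on a mixed C57BL/6 and 129/Sv background, with 2 libraries of mammary gland from the first mouse (MG1), 5 of its tumor (MT1), 2 of gland from the second mouse (MG2) and 3 of its tumor (MT2). Every library carries the Brca1 alleles and the Cre transgene, which acts in mammary epithelium, so no library with intact Brca1 serves as a control, and the age of the mice at dissection is not given in the labels. Cells were prepared after depletion of blood and endothelial cells. Libraries of 1 tissue of 1 mouse do not repeat the animal. The labels do not say whether they are separate cell preparations or repeat droplet runs. The p-values between groups therefore measure only the spread between these libraries. A deletion inside Brca1 is not visible in counts taken at the 3′ end of RNA.

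The proteasome degrades proteins that carry ubiquitin chains. The alpha ring gates the core, 3 of the 7 beta subunits (Psmb5, Psmb6 and Psmb7) carry the active sites, the ATPases of the regulatory particle unfold the substrate, and the lid removes its ubiquitin. In many cell types the subunit genes are transcribed together, and the transcription factor encoded by Nfe2l1 raises them when proteolysis is limiting. Mammary epithelium has an inner luminal layer, with secretory and hormone-sensing cells, and an outer contractile basal layer.

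Counts were summed per library over the 20025 cells outside stromal clusters, out of 21157 cells, and are given as counts-per-million values (CPM) of the library's total scaled by the TMM method. Unscaled CPM, used for pooled cells of a cluster, are of the cells' own total. A fold change is on the log2 scale with its standard error (SE), and a gene is called when edgeR's quasi-likelihood test gives an adjusted p under 0.05 over all genes tested. The whole libraries held between 693333 and 14841414 UMIs. MG1 replicate 2 was the smallest, with 73 cells outside stromal clusters. Gland cells formed luminal secretory-like, luminal hormone-sensing-like and basal-like clusters, and MT1 formed an epithelial-like, a mesenchymal-like and unnamed clusters. The MT2 clusters stayed unnamed: the summed level of 9 epithelial markers was 714 and 788 unscaled CPM in them, against 8766 in the epithelial-like cluster of MT1, although the preparation was enriched for epithelial cells. In the summed MT2 libraries, 9 fibroblast marker genes reached between 3339 and 3784 unscaled CPM, against 308 to 718 in the gland libraries and 340 to 464 in MT1. A sum of 10 mesenchymal markers was higher in both tumors, at 7126 to 7537 in MT2 and 1377 to 2534 in MT1, against 311 to 510 in the glands. Mitochondrial genes took 9.81% and 11.7% of UMIs in MG1 and 4.58% to 8.89% in the other libraries. The part of the cell mixtures and of RNA quality in the results below was not tested. Within 1 sum, a larger share of cells with much of an RNA and more of that RNA in each cell cannot be told apart.

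The promoters of 6 subunits are shown because they contrast genes with a high and genes with little change: Psma5, Psmb4 and Psmd14 had the highest mean log2 change over the 2 mice in the alpha ring, the noncatalytic beta genes and the lid, and Psmb5, Psmc1 and Psmd11 are 3 of those called in neither mouse. The choice was made after the values were seen. Each sequence is RefSeq's on assembly GRCm38.p6, 300 bases from 250 before to 50 after the annotated start and read 5′ to 3′ on the gene's strand. Capitals mark the letters CCAAT (the box of that name), those of an ETS site, CCGGAAG, those of TGACNNNGC (the core of the antioxidant response element, the type of site used by the products of Nfe2l1 and Nfe2l2) or those of a YY1 site, AAGATGGCG, searched on both strands, with overlapping matches merged. The windows are chr3:108256676-108256975 on the plus strand (Psma5), chr3:94886909-94887208 on the minus strand (Psmb4), chr2:61711444-61711743 on the plus strand (Psmd14), chr14:54617946-54618245 on the minus strand (Psmb5), chr12:100109952-100110251 on the plus strand (Psmc1) and chr11:80428365-80428664 on the plus strand (Psmd11).
Psma5: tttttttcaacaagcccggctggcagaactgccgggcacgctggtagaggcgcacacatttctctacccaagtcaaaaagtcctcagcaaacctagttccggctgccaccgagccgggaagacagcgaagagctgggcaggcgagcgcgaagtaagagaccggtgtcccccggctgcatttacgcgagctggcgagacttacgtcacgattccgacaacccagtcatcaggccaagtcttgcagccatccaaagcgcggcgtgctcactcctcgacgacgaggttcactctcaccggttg
Psmb4: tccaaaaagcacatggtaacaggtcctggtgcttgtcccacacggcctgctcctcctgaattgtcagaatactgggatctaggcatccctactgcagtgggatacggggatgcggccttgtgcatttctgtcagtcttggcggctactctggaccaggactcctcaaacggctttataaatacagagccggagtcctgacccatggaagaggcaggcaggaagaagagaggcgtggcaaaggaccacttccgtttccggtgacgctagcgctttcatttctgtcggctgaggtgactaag
Psmd14: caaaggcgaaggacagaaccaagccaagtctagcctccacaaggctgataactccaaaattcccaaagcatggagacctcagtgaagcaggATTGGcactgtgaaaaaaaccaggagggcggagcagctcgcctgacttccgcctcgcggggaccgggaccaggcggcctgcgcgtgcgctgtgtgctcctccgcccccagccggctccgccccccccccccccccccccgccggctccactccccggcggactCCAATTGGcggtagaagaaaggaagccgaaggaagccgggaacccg
Psmb5: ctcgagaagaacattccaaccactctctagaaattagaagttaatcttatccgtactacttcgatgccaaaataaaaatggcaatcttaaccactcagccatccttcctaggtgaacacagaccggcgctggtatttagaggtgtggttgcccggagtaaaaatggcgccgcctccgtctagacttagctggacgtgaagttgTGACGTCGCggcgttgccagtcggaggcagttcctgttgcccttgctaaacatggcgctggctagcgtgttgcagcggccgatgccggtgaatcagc
Psmc1: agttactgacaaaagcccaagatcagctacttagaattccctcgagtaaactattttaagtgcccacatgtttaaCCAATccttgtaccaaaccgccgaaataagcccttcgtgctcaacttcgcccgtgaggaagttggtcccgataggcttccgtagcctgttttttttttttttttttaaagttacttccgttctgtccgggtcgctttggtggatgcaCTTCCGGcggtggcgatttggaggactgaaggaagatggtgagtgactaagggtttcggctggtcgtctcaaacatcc
Psmd11: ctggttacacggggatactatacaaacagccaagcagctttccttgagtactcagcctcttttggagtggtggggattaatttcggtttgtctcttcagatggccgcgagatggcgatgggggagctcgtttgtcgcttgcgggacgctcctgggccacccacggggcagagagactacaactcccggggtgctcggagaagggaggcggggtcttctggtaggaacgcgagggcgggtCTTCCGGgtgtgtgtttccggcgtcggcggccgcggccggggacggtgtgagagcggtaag

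In these windows the letters of the antioxidant response element stand in Psmb5, those of the ETS site in Psmc1 and Psmd11, and those of the CCAAT box in Psmd14 and Psmc1. Psma5 and Psmb4 hold none of the 4 motifs. Of the 34 subunits, 28 had a promoter in the table, and Psmb1, Psmb2, Psmb7, Psmc3, Psmd3 and Psmd7 had none. CCGGAAG was found in 10 of the 28 (35.7%) and in 8.86% of all 32851 promoters of this length. The 10 are Psmd4, Psmc2, Psmd13, Psmd11, Psmd12, Psmc1, Psmd6, Psmc6 and Psmd2 of the regulatory particle and the activator gene Psme3, so that 9 of 14 regulatory promoters and 0 of 11 core promoters held it. TGACNNNGC was found in 4 of the 28 (14.3%), namely Psmb5, Psmb6, Psmc6 and Psmd12, against 12.4% of all promoters. CCAAT stood in 11 of the 28 (39.3%) against 37.4% of all promoters, 6 of them core and 4 of them regulatory. AAGATGGCG stood in Psmb6 and Psmc5, and in 1.40% of all promoters. The median log2 change of the 10 genes with CCGGAAG was 0.61 in MT1 against MG1 and 0.17 in MT2 against MG2, and that of the 18 without it was 1.14 and 0.69. The 11 genes with CCAAT had medians of 1.38 and 0.72, against 0.74 and 0.32 for the 17 without it, and the 4 with TGACNNNGC had 0.78 and 0.27, against 1.00 and 0.54 for the other 24. The CCGGAAG split largely follows the split between core and regulatory genes, and a match of letters is a description of the window and not a bound site.

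Proteasome RNA was higher in both tumors than in the gland of the same mouse, and the core rose more than the regulatory particle. The 14 core genes together stood at 2490 and 1839 CPM in the MG1 libraries, 2910 and 2714 in MG2, 7435, 5606, 6490, 7182 and 6604 in MT1, and 5873, 7416 and 6412 in MT2. The mean was 3.08-fold that of the gland in the first mouse and 2.34-fold in the second. Psma7 carried much of the second value, since without it, an alternative chosen after seeing the data, the core means were 3.23-fold and 1.92-fold. The lowest tumor library was well above the highest gland library. For the 17 genes of the regulatory particle the sums were 2372 and 1856 CPM in MG1, 2608 and 2446 in MG2, 4441, 3975, 4119, 4389 and 3990 in MT1, and 3697, 4240 and 3730 in MT2. These are 1.98-fold and 1.54-fold, again with no overlap between gland and tumor. The 3 activator genes stood at 376 and 359 CPM in MG1, 307 and 308 in MG2, 433, 367, 404, 421 and 370 in MT1, and 406, 426 and 440 in MT2, so that MT1 overlapped MG1 while MT2 lay above MG2.

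**Figure D1:**
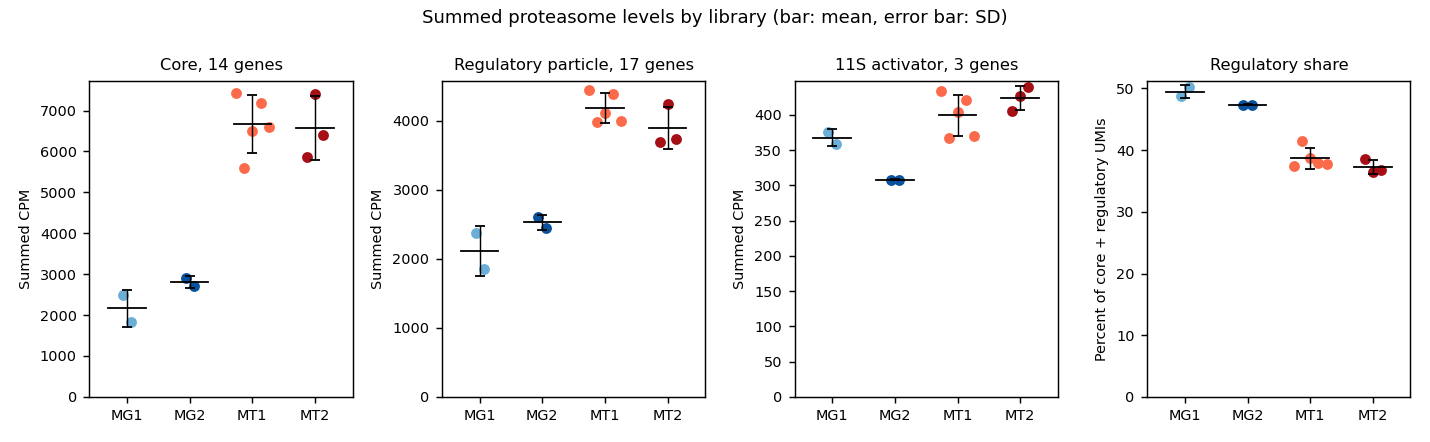
Summed CPM of the core (14 genes), regulatory particle (17 genes) and activator genes (3 genes), and the regulatory share of core plus regulatory UMIs in percent, for each library (points) of MG1, MG2, MT1 and MT2, with the group mean (bar) and SD (error bar). Core and regulatory sums lie higher, and the regulatory share lower, in every tumor library than in every gland library.

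The balance of the particles differed between the tissues. The regulatory particle supplied 48.8% and 50.2% of the core and regulatory UMIs in MG1 and 47.3% and 47.4% in MG2. In the tumors it supplied 37.4%, 41.5%, 38.8%, 37.9% and 37.7% (MT1) and 38.6%, 36.4% and 36.8% (MT2). The gland and tumor libraries did not overlap. The exact Clopper-Pearson 95% intervals, counting error only, reached from 46.6% to 47.9% for the gland library with the lowest share, MG2 replicate 1. They reached from 48.1% to 52.4% for the smallest gland library and from 40.9% to 42.1% for the tumor library with the highest share. Without Psma7 the mean share was 55.5% in MG1 and 43.5% in MT1, and 54% in MG2 and 48.6% in MT2, so the gap in the second mouse was smaller but the libraries still did not overlap. These sums add UMIs over genes and are not numbers of assembled particles.

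Of the 34 subunits, 26 were called higher in MT1 than in MG1, where 32.2% of the 13649 genes tested were called higher. Psmb7 and Psme1 were called lower, against 27.1% of all genes. The median log2 change of the 34 was 1.00, against 0.11 over all genes tested. In the second mouse 21 subunits were called higher in MT2 than in MG2, against 32.8% of all genes. None was called lower by edgeR, against 34.2% of all genes, and the count was also 0 at an unadjusted p under 0.05 and by DESeq2. The median of the 34 was 0.54, against -0.05 over all genes. Calls higher in both mice covered 19 subunits, 10 of the core, 8 of the regulatory particle and Psme2, against 18.4% of all genes tested.

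The groups within the complex differed in size of change. In the alpha ring, 7 of 7 genes were called higher in MT1 and 6 of 7 in MT2, with median log2 changes of 1.45 and 0.72. All 4 noncatalytic beta genes were called higher in both mice, with medians of 2.00 and 1.00. Among the 3 catalytic genes, 1 was called higher and 1 lower in MT1 and 1 was called higher in MT2, with medians of 0.12 and 0.22. For the 6 ATPases of the base the medians were 0.67 and 0.43, with 4 called higher in each mouse. The other base subunits (Psmd1, Psmd2 and Psmd4) were called higher in both, with medians of 1.04 and 0.76. The 8 lid genes gave 6 calls in MT1 with a median of 1.02, but 2 calls in MT2 with a median of 0.16. Of all genes tested, 32.2% were called higher and 27.1% lower in MT1, and 32.8% were called higher in MT2. The catalytic genes and, in MT2, the lid genes were called at about these shares or less often. No difference between these groups of genes was tested.

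**Figure D2:**
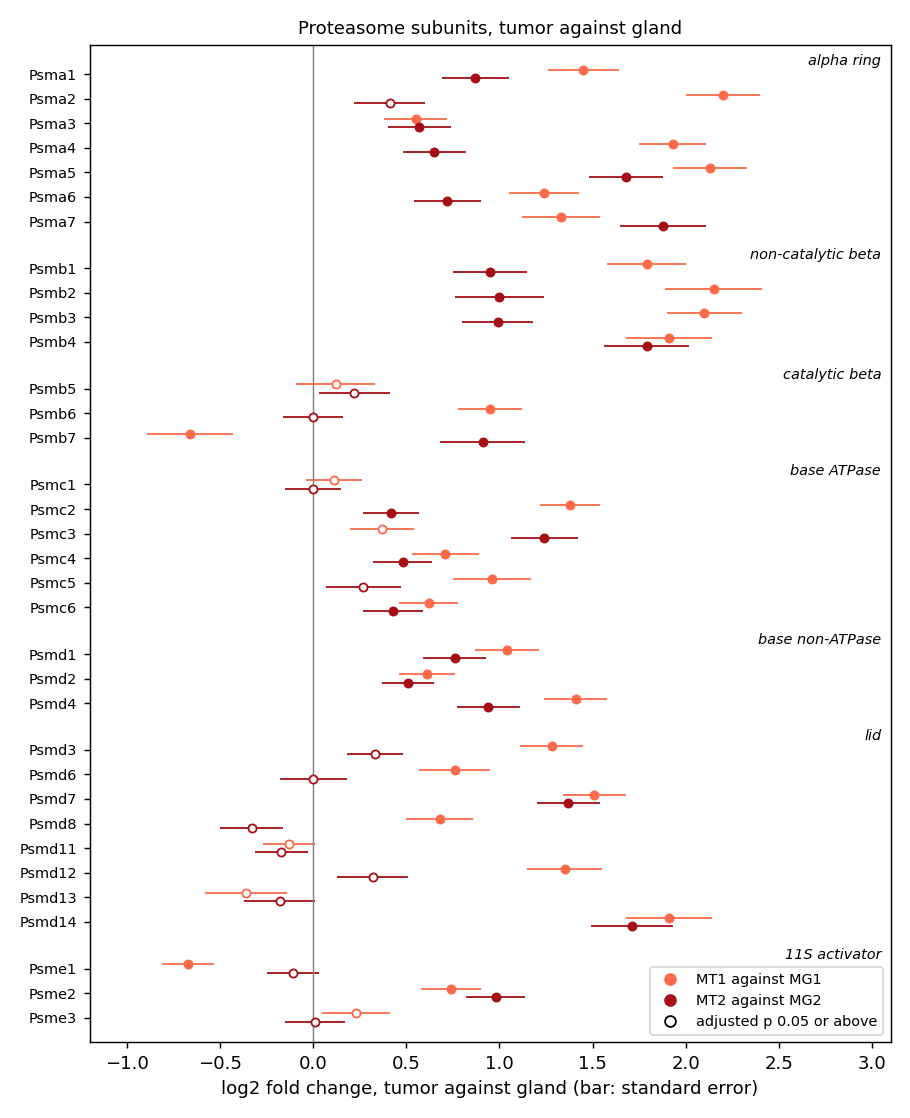
Log2 fold change of each of the 34 subunits in MT1 against MG1 (light) and MT2 against MG2 (dark), with the standard error as a bar and an open point where the adjusted p was 0.05 or above, grouped by sub-complex. The noncatalytic beta genes and Psma5, Psmd7 and Psmd14 lie far to the right in both mice, whereas Psmb5, Psmc1 and Psmd11 lie near 0.

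In the alpha ring, Psma5 had the highest mean change over the mice. It stood at 216 and 146 CPM in MG1, 205 and 215 in MG2, 921, 626, 805, 834 and 862 in MT1, and 609, 729 and 687 in MT2. Every tumor library lay above every gland library. The log2 change was 2.13 (SE 0.20, edgeR adjusted p = 1.10e-07) in the first mouse and 1.68 (SE 0.20, adjusted p = 5.20e-07) in the second. The lowest mean change belonged to Psma3, at 166 and 124 CPM in MG1, 238 and 236 in MG2, 249, 168, 224, 206 and 240 in MT1, and 346, 365 and 345 in MT2. MT1 was barely clear of MG1, and MT2 stood apart from the other groups. Psma3 rose by 0.55 (SE 0.17, adjusted p = 0.0102) in MT1, which missed the threshold if MG1 replicate 2 was left out (0.41, adjusted p = 0.0775), and by 0.57 (SE 0.17, adjusted p = 0.00704) in MT2. The most abundant subunit RNA was Psma7, at mean levels of 473 CPM (SD 196, n = 2) for the MG1 gland and 1207 (SD 126, n = 5) for its tumor, and of 661 (SD 108, n = 2) for the MG2 gland and 2439 (SD 258, n = 3) for its tumor. Since UMIs are counted at the 3′ end, such levels are not divided by gene length, and capture may differ between genes.

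Among the noncatalytic beta subunits Psmb4 had the highest mean change. It stood at 166 and 128 CPM in MG1, 183 and 187 in MG2, 651, 375, 605, 548 and 627 in MT1, and 553, 776 and 592 in MT2. MT1 replicate 2 was the lowest tumor library and still far above the highest gland library. The log2 changes were 1.91 (SE 0.23, adjusted p = 1.82e-06) and 1.79 (SE 0.23, adjusted p = 1.50e-06). Psmb1, lowest of its group, stood at 261 and 155 CPM in MG1, 330 and 281 in MG2, 836, 628, 743, 751 and 735 in MT1, and 508, 687 and 577 in MT2. Its groups did not overlap within either mouse. It rose by 1.79 (SE 0.21, adjusted p = 1.24e-06) and 0.95 (SE 0.20, adjusted p = 0.000434).

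The 3 catalytic genes differed among themselves in their calls. Psmb5, which encodes the chymotrypsin-like site that clinical proteasome inhibitors bind, stood at 59.1 and 68.0 CPM in MG1, 80.1 and 69.3 in MG2, 64.9, 49.1, 84.7, 79.8 and 55.6 in MT1, and 89.4, 85.2 and 86.8 in MT2. MT1 spread to both sides of MG1, and MT2 was slightly above MG2. Its log2 change of 0.12 (SE 0.21, adjusted p = 0.653) in MT1 and 0.22 (SE 0.19, adjusted p = 0.323) in MT2 passed the test in neither mouse. Psmb6, the caspase-like subunit, stood at 160 and 168 CPM in MG1, 185 and 190 in MG2, 356, 267, 326, 344 and 290 in MT1, and 162, 216 and 184 in MT2. It was high in MT1 alone, while MT2 overlapped MG2. The log2 change was 0.95 (SE 0.17, adjusted p = 0.000111) in MT1 and -0.00 (SE 0.16, adjusted p = 1) in MT2.

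Psmb7, the trypsin-like subunit, went opposite ways in the mice. It stood at 73.5 and 91.8 CPM in MG1, 30.8 and 28.4 in MG2, 57.2, 60.4, 55.7, 44.4 and 39.3 in MT1, and 64.7, 38.4 and 63.7 in MT2. The tumors overlapped each other, and the glands stood apart, with MG1 the highest and MG2 the lowest group. Psmb7 fell by 0.66 on the log2 scale (SE 0.23, adjusted p = 0.0191) in MT1, lost without MG1 replicate 2 (-0.52, adjusted p = 0.0945) and without the low-count filter (-0.54, adjusted p = 0.0643). It rose by 0.91 (SE 0.23, adjusted p = 0.00219) in MT2. The counts behind it were 232 UMIs in MG1 and 250 in MG2, against 969 in MT1 and 2188 in MT2. In secretory-like cells alone it stood at 66 and 111 CPM in MG1 and 33.3 and 27.5 in MG2, with no overlap, on 20 to 61 UMIs a library. No test was made of the glands against each other.

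**Figure D3:**
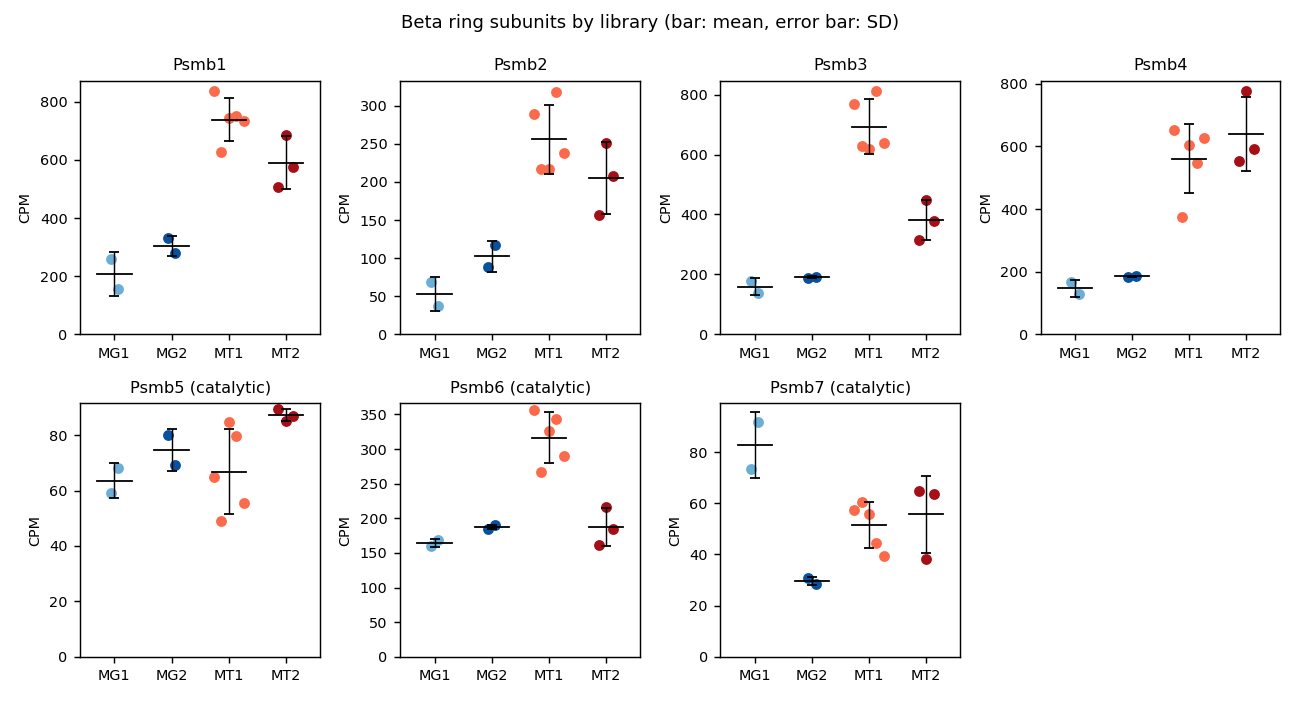
CPM of Psmb1 to Psmb7 in each library (points) of MG1, MG2, MT1 and MT2, with the group mean (bar) and SD (error bar) and a separate scale for each gene starting at 0. Psmb1 to Psmb4 lie higher in every tumor library than in the glands. Psmb5 overlaps between MG1 and MT1 and lies slightly higher in MT2 than in MG2, and Psmb7 is highest in MG1 and lowest in MG2.

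In the base of the regulatory particle, Psmc2 had the highest and Psmc1 the lowest mean change of the ATPases. Psmc2 stood at 112 and 93.5 CPM in MG1, 113 and 126 in MG2, 291, 251, 265, 278 and 272 in MT1, and 149, 175 and 153 in MT2. MT1 stood far above the other groups. It rose by 1.38 (SE 0.16, adjusted p = 9.86e-07) in MT1 and by 0.42 (SE 0.15, adjusted p = 0.0191) in MT2, the second call being lost without MG2 replicate 1 (adjusted p = 0.146) or MT2 replicate 2 (adjusted p = 0.0555). Psmc1 stood at 224 and 235 CPM in MG1, 235 and 243 in MG2, 258, 263, 217, 286 and 208 in MT1, and 239, 236 and 241 in MT2. Tumor overlapped gland within each mouse, with changes of 0.11 (SE 0.15, adjusted p = 0.561) and -0.00 (SE 0.15, adjusted p = 0.999). Psmc3 was the ATPase called in the second mouse and not in the first, by 1.24 (SE 0.18, adjusted p = 6.88e-06) in MT2 against 0.37 (SE 0.17, adjusted p = 0.0728) in MT1.

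Psmd4, a ubiquitin receptor of the base, stood at 190 and 156 CPM in MG1, 220 and 241 in MG2, 467, 482, 481, 528 and 377 in MT1, and 422, 484 and 423 in MT2. Tumor and gland libraries did not overlap. It rose by 1.41 (SE 0.17, adjusted p = 1.99e-06) and 0.94 (SE 0.17, adjusted p = 7.62e-05). Psmd2, a scaffold subunit, moved less, from 98.8 and 104 CPM in MG1 and 138 and 117 in MG2 to 155, 151, 157, 161 and 148 in MT1 and 169, 202 and 174 in MT2. It rose by 0.61 (SE 0.15, adjusted p = 0.00195) in MT1 and by 0.51 (SE 0.14, adjusted p = 0.00474) in MT2, the latter lost without MG2 replicate 2 (0.42, adjusted p = 0.0775).

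In the lid, Psmd14, the metalloprotease that cuts ubiquitin from the substrate, had the highest mean change. It stood at 83.1 and 73.1 CPM in MG1, 98.3 and 75.2 in MG2, 353, 224, 271, 303 and 339 in MT1, and 249, 352 and 249 in MT2. The lowest tumor library stood well above the highest gland library. The log2 changes were 1.91 (SE 0.23, adjusted p = 1.83e-06) and 1.71 (SE 0.22, adjusted p = 1.69e-06). At the other end, Psmd13 stood at 32.6 and 44.2 CPM in MG1, 34 and 28.2 in MG2, 23.0, 35.3, 28.8, 27.0 and 26.2 in MT1, and 28.8, 22.7 and 30.8 in MT2. Tumor overlapped gland within each mouse in this sparsely counted gene, with changes of -0.36 (SE 0.22, adjusted p = 0.158) and -0.18 (SE 0.19, adjusted p = 0.41). Psmd11, a lid scaffold, was also called in neither mouse, at -0.13 (SE 0.14, adjusted p = 0.422) and -0.17 (SE 0.14, adjusted p = 0.298). Its MT2 libraries, at 119, 127 and 117 CPM, nevertheless all lay below those of MG2, at 141 and 131. Psmd7 was the other lid subunit called higher in both mice, at 1.51 (SE 0.17) in MT1 and 1.37 (SE 0.17) in MT2.

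The activator genes diverged. Psme1 and Psme2 encode the partner subunits of a ring that is inducible by interferon and caps the core, and Psme3 encodes a separate nuclear ring. Psme1 stood at 190 and 189 CPM in MG1, 152 and 147 in MG2, 108, 116, 133, 125 and 113 in MT1, and 138, 130 and 147 in MT2. It was lowest in MT1, and MT2 lay at or just under MG2. Psme1 fell by 0.67 on the log2 scale (SE 0.14, adjusted p = 0.000416) in MT1, with -0.11 (SE 0.14, adjusted p = 0.501) in MT2. Its partner Psme2 stood at 151 and 128 CPM in MG1, 129 and 134 in MG2, 278, 201, 233, 253 and 215 in MT1, and 240, 271 and 266 in MT2. All tumor libraries were above all gland libraries. Psme2 rose by 0.74 (SE 0.16, adjusted p = 0.000815) and 0.98 (SE 0.16, adjusted p = 3.73e-05). Psme3 stood at 34.7 and 42.5 CPM in MG1, 26.5 and 27.2 in MG2, 46.6, 49.9, 39.1, 42.2 and 42.2 in MT1, and 27.3, 25.8 and 28.3 in MT2, and passed the test in neither mouse. Near-identical copies add uncertainty to Psme2, since Psme2b held 1983 UMIs beside its 16748 over all cells, whereas Psmb6-ps2 held 62 beside 16123 for Psmb6 and Psma8 held 5 beside 129477 for Psma7.

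The change from gland to tumor was called different between the mice for 14 subunits, 41.2% of them against 43.6% of all genes tested, so the share of the subunits was near that of all genes. The log2 change was above that of the second mouse in the first for 11 (26.4% of all genes tested) and below it for 3 (17.2% of all genes). The 11 were Psma2, Psma4, Psmb1, Psmb2, Psmb3, Psmb6, Psmc2, Psmd3, Psmd6, Psmd8 and Psmd12. Psma2 led them, at 181 and 134 CPM in MG1, 286 and 242 in MG2, 812, 617, 700, 748 and 834 in MT1, and 303, 414 and 336 in MT2. MT1 stood far above the other groups, and the log2 difference between the changes was 1.79 (SE 0.26, adjusted p = 2.32e-05). The 3 with the lower log2 change in the first mouse were Psmb7 (-1.56, SE 0.33, adjusted p = 0.000811), Psmc3 (-0.87, SE 0.24, adjusted p = 0.00699) and Psme1 (-0.56, SE 0.20, adjusted p = 0.0293), of which Psme1 fell in the first mouse and was not called in the second. Leaving out 1 of the 12 libraries ended the call of Psmd6 in 5 fits, of Psmb1 in 4 (MG1 replicate 2, MG2 replicate 1, MT1 replicate 1 or MT2 replicate 3), of Psme1 in 3 (MG1 replicate 1 or either MG2 library), of Psmb2 in 1 (MG2 replicate 2) and of Psmc3 in 1 (MG1 replicate 1). For Psmd6 these were the libraries named for Psmb1 and MT1 replicate 4. Psmb4 and Psmd14, with differences of 0.12 (SE 0.30, adjusted p = 0.798) and 0.20 (SE 0.30, adjusted p = 0.631), were not called. A missed threshold does not show equal change in these genes.

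The tumors were also compared directly, a comparison that shares its libraries with those above. Of the 34 subunits, 13 were called higher in MT1 (35.3% of all genes) and 4 higher in MT2 (33.0% of all genes), so that 38.2% and 11.8% of the members were called. The 4 higher in MT2 were Psma3 (-0.69, SE 0.13), Psma7 (-1.01, SE 0.16), Psmb5 (-0.37, SE 0.15) and Psmc3 (-0.96, SE 0.13). Psmb5 is the least firm of them, with an adjusted p of 0.0415 that lay above the threshold in 8 of the 12 fits that left out 1 library. Psma4 (1.05, SE 0.14), Psma2 (1.08, SE 0.15) and Psmb3 (0.86, SE 0.15) led those higher in MT1.

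The other genes near the subunits moved in either direction. Within 5 Mb, the median log2 change of the neighbours was above 0 for 14 of the 26 subunits called higher in MT1 and for 10 of the 21 called higher in MT2. The subunit itself changed by more than that median in 25 of 26 and 21 of 21. Taking only subunits already called higher largely set this tally, and the other subunits were left out of it. The neighbour medians ran from -0.49 to 0.79 in MT1 and from -0.74 to 0.69 in MT2. Psma1 and Psmb2, for example, had neighbours at -0.49 and -0.25 in MT1 and at -0.52 and -0.53 in MT2. Within 5 Mb of Psma2 on chromosome 13, the median log2 change of 36 other tested genes was 0.72 in MT1 and -0.03 in MT2. Around Psma4 on chromosome 9 the median of 97 genes was 0.79 in MT1 and -0.13 in MT2, and around Psma7 on chromosome 2 that of 47 genes was 0.04 in MT1 and 0.69 in MT2. Those 3 genes changed by more than their surroundings, at 2.20 (Psma2) and 1.93 (Psma4) in MT1 and 1.88 (Psma7) in MT2. Psmd2 on chromosome 16, in contrast, changed in MT1 by 0.61, with a median of 0.63 over its 88 neighbours. Around Psmb4 and Psmd4, whose windows on chromosome 3 overlap, and Psmd7 on chromosome 8 the medians were above 0 in both mice, at 0.45 and 0.58 for 124 neighbours of Psmb4, 0.45 and 0.55 for 122 of Psmd4, and 0.36 and 0.65 for 115 of Psmd7. For Psma5 on chromosome 3 the median of 80 neighbours was 0.05 in MT1 and 0.17 in MT2, and for Psmd14 on chromosome 2 that of 28 neighbours was -0.40 and 0.45. No copy number was measured, and its part in these values was not tested.

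With the animal as the replicate, the 4 sums of gland and tumor of each mouse leave a paired fit in which edgeR called 0 of the 34 subunits (0% of 14953 genes tested). At an unadjusted p under 0.05, 10 subunits were higher and none lower, among 2247 genes of all directions. DESeq2 called 4 subunits higher (4.18% of all genes), namely Psma5 (adjusted p = 0.00592), Psmb4 (adjusted p = 0.00667), Psmd14 (adjusted p = 0.0107) and Psma7 (adjusted p = 0.0468). The calls between groups above therefore speak of these 2 mice.

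The counts of calls moved little when cells with proliferation UMIs were left out of the sums. Proliferation was read from 20 genes after each cell was thinned to 500 UMIs, and cells with 2 or more such UMIs, called proliferating here, made up between 0.67% and 1.37% of cells in the gland libraries, 7.61% to 19.5% in MT1 and 22.2% to 32.0% in MT2. When the sums held only cells without a proliferation UMI, a choice made after seeing the data, 26 subunits were called higher (30% of all genes) and 2 lower (26.9%) in MT1 against MG1, and 20 higher (30.9%) and 0 lower (34.3%) in MT2 against MG2. With cells below 2 such UMIs the counts were 26 (29.3% of all genes) and 2 (28.6%), and 22 (32.3%) and 0 (33.7%). A cell without such a UMI may still cycle, and 21.7% of the MT2 cells below 2 UMIs lay in an unnamed cluster led by mitotic genes.

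Cluster by cluster, every tumor cluster outside the stroma carried more core RNA than every gland cluster. In unscaled CPM, the core sum of the 6 such tumor clusters ran from 5860 in the epithelial-like cluster of MT1 to 7601 in its mesenchymal-like cluster. Gland hormone-sensing-like cells stood at 2540 (MG1) and 3223 (MG2), secretory-like cells at 1848 and 2857, and basal-like cells at 1521 and 1907. The regulatory sum was close to the core sum in these gland clusters, at 0.850 to 1.09 of it, and lay between 0.578 and 0.641 of it in the tumor clusters outside the stroma. MT1 cells of the hormone-sensing-like cluster stood at core sums of 5217 (replicate 3) and 5997 (replicate 4), on 20 cells each. MG1 cells of that cluster stood at 2585 (replicate 1) and 2325 (replicate 2). The part of RNA from other cells in these sums was not tested.

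The same direction was seen in cells of the stroma. Fibroblast-like cells stood at core sums of 1574 (MG1) and 1550 (MG2) in the gland cluster and at 4459 (MT1) and 3687 (MT2) in a separate tumor cluster. By library, the MT2 value was 2865, 5406 and 3086 in replicates 1, 2 and 3. Endothelial-like cells stood at 2350 in MG2 and 5292 in MT1. The MT1 endothelial-like cells also held epithelial markers at a sum of 4822 unscaled CPM, against 1561 in those of MG2, and the part of RNA from other cells in these values was not tested. The MT1 fibroblast-like and endothelial-like sums rest on 57 and 58 cells.

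**Figure D4:**
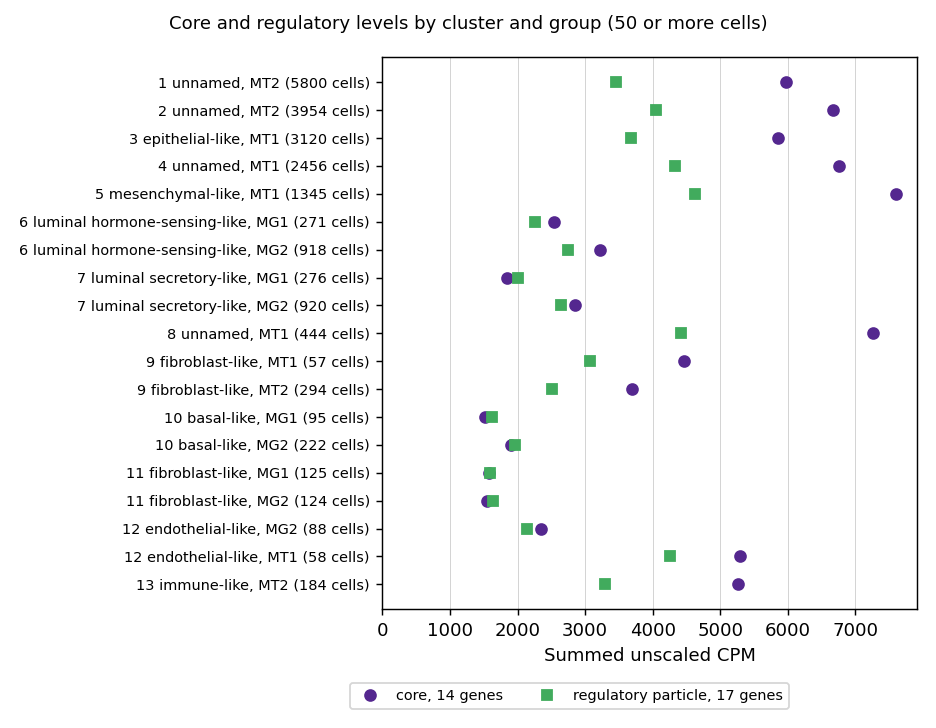
Summed unscaled CPM for the core (circles) and the regulatory particle (squares) in each cluster and group with 50 or more cells, pooled over libraries. In the gland rows the circles and squares lie close together at 3223 or less, and in the tumor rows outside the stroma the circles lie to the right of the squares, at 5860 or more.

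Within the glands, the 3 epithelial classes were compared inside each library, with clusters made without the proteasome and ubiquitin genes but from other genes of the same cells. Basal-like cells held the least proteasome RNA. The core sum was 1735 CPM in basal-like cells of MG1 replicate 1 and 1954 and 1947 in those of MG2. It was 2223 and 1905 in the secretory-like cells of MG1, 2910 and 2734 in those of MG2, and 2787, 2139, 3100 and 2799 in hormone-sensing-like cells. Against hormone-sensing-like cells, 16 subunits were called lower in basal-like cells (21.8% of 9212 genes tested) and 0 higher (19.7% of all genes, with 0 subunits at an unadjusted p under 0.05 and 0 by DESeq2). Of the core genes 10 of 14 were called lower, and of the regulatory genes 4 of 17. Without MG2 replicate 1 the count was 9. Against secretory-like cells 10 were called lower (13.3% of all genes) and 0 higher (13.8% of all genes, 0 at an unadjusted p under 0.05 and 0 by DESeq2). That count fell to 0 without MG2 replicate 1 and to 1 without MG2 replicate 2, and DESeq2 called 5.

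Psme1, Psme2 and Psmb5 were called higher in hormone-sensing-like cells than in secretory-like and in basal-like cells. Psme2 stood at 240, 165, 174 and 189 CPM in the hormone-sensing-like cells of the 4 gland libraries, at 67.1, 116, 88.5 and 86.9 in secretory-like cells and at 66.6, 68.1 and 62.7 in the 3 libraries with enough basal-like cells. The hormone-sensing-like values were above all the others. Psme2 was higher than in secretory-like cells by 1.18 (SE 0.17, adjusted p = 4.84e-06) and lower in basal-like than in hormone-sensing-like cells, at -1.55 (SE 0.24, adjusted p = 1.11e-05). Psme1 differed in the same direction, by 0.79 (SE 0.15, adjusted p = 0.000236) and -1.05 (SE 0.21, adjusted p = 0.000261). The other activator gene, Psme3, stood at 33.8, 37.8, 22.3 and 21.8 CPM in hormone-sensing-like and 44.8, 44.3, 31.7 and 35.6 in secretory-like cells. It was below the secretory-like value in each of the 4 libraries, at -0.51 (SE 0.22, adjusted p = 0.0688), and was not called. In all, 6 subunits were called higher in hormone-sensing-like than in secretory-like cells (18.8% of all genes) and 2 lower (18.1% of all genes), and the first count was 3 without either MG2 library. The 2 lower calls, Psmc2 (-0.43, SE 0.16) and Psmd1 (-0.39, SE 0.14), were both lost with DESeq2 and without any of MG1 replicate 2, MG2 replicate 1 and MG2 replicate 2.

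Psmb5, called in neither tumor, had the largest change of the 14 core genes in each of the comparisons of gland classes. It stood at 66.8, 110, 105 and 83.5 CPM in hormone-sensing-like cells, at 53.0, 33.2, 68.3 and 59.9 in secretory-like cells and at 22.2, 22.7 and 36.9 in basal-like cells. The 3 classes did not overlap in MG2. The change was -1.70 (SE 0.32, adjusted p = 0.000123) in basal-like against hormone-sensing-like cells and 0.60 (SE 0.19, adjusted p = 0.013) in hormone-sensing-like against secretory-like cells. The basal-like values rest on 5, 7 and 10 UMIs, and the second call was lost without either MG2 library.

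In MT1, the mesenchymal-like cluster carried more proteasome RNA than the epithelial-like cluster in each of the 5 libraries. The core sums were 8130, 6669, 7436, 8015 and 7726 CPM against 6980, 5135, 5924, 6646 and 6130. Pooled over libraries, they were 7601 unscaled CPM in the mesenchymal-like and 5860 in the epithelial-like cluster. The unnamed clusters 4 and 8, not part of this comparison, stood between them at 6761 and 7265. In MT1 replicate 2, cluster 8 (7419) was above the mesenchymal-like cluster (6689). There were 23 subunits called higher (33.8% of 8347 genes tested) and 3 lower (33.1% of all genes), and DESeq2 called 18 and 1. Psmd2 led, at 207, 233, 225, 223 and 229 CPM against 118, 115, 112, 117 and 97.5. The ranges did not overlap, and the log2 change was 1.01 (SE 0.08, adjusted p = 1.36e-16). Psmb2 (0.87, SE 0.07), Psmd8 (0.72, SE 0.09), Psmb5 (0.69, SE 0.12) and Psmc3 (0.66, SE 0.07) followed.

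The subunits lower in the mesenchymal-like cells were Psme1 (-0.60, SE 0.10, adjusted p = 1.11e-06), Psmc5 (-0.15, SE 0.07, adjusted p = 0.0461) and Psmd4 (-0.14, SE 0.06, adjusted p = 0.0392). The Psmc5 call was lost in 4 of 5 fits without 1 library (all but MT1 replicate 2) and that of Psmd4 in 3 (MT1 replicates 1, 2 and 4). Psme1 stood at 77.6, 79.8, 86.9, 79.2 and 62.2 CPM against 119, 102, 117, 129 and 115. For Psme2 the result turned on which clusters counted as epithelial: it was higher by 0.65 (SE 0.08, adjusted p = 1.34e-10) against the epithelial-like cluster, but -0.07 (adjusted p = 0.379) once the unnamed clusters 4 and 8 joined that side, an alternative chosen after seeing the data. Cluster 4 held Psme2 at 379 unscaled CPM against 136 in the epithelial-like cluster and 222 in the mesenchymal-like cluster. Its sum of 9 epithelial markers, 12443 unscaled CPM, was above the 8766 of the cluster named epithelial-like.

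Differences between proliferating and other cells of the same tumor were small. In MT1, 12 subunits were called higher in cells with 2 or more proliferation UMIs (10.3% of 12281 genes tested), and 0 were called lower by edgeR (10.5% of all genes, with 1 subunit at an unadjusted p under 0.05 and 0 by DESeq2). The log2 changes of these 12 ran from 0.11 for Psma7 to 0.35 for Psma1 (SE 0.07, adjusted p = 1.57e-05). Psmd14 stood at 410, 309, 302, 352 and 389 CPM in proliferating cells and at 339, 217, 260, 291 and 327 in the others, higher in each library, with a change of 0.28 (SE 0.06, adjusted p = 0.000173). The count was 7 without MT1 replicate 1 and 6 without MT1 replicate 3, 22 when 1 UMI was enough and 5 when 3 were needed. It was 4 when each cell was thinned to 1000 UMIs.

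Cell mixture and depth moved with this split. The median number of UMIs per cell was higher in proliferating than in other cells of every tumor library, for example 4058 against 2840 in MT1 replicate 2. The mesenchymal-like cluster made up 26.2% of the proliferating and 16.8% of the other MT1 cells, cluster 8 made up 26.5% and 2.76%, and the epithelial-like cluster 9.58% and 46.8%. Without the mesenchymal-like cluster and the gland classes, 3 subunits were called higher (6.00% of all genes) and 3 lower (14.3% of all genes) in proliferating cells of MT1. In MT2 the unnamed cluster led by mitotic genes held 89.7% of the proliferating and 21.7% of the other cells.

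In MT2, 2 subunits were called higher in proliferating cells (9.27% of all genes) and 2 lower (17.5% of all genes). Psmd14 rose by 0.17 (SE 0.05, adjusted p = 0.00425) and Psmc3 by 0.14 (SE 0.05, adjusted p = 0.0143), whereas Psmd8 fell by 0.25 (SE 0.07, adjusted p = 0.00325) and Psme1 by 0.21 (SE 0.06, adjusted p = 0.00403). Without MT2 replicate 3 none of the 4 passed, and Psmc3 was also lost without MT2 replicate 1. The difference between the tumors was called for Psmb4 (3.09% of all genes called in this direction and 1.49% in the other), and 12 subunits passed at an unadjusted p under 0.05 (15.7% of all genes). Psmb4 stood at 742, 450, 755, 615 and 680 CPM in proliferating and 629, 370, 568, 529 and 612 in other MT1 cells, and at 542, 774 and 602 against 558, 769 and 596 in MT2. The difference in log2 change was 0.27 (SE 0.07, adjusted p = 0.00476), and it was lost without MT1 replicate 3 (0.23, adjusted p = 0.0656) and without the mesenchymal-like cluster and the gland classes (0.14, adjusted p = 0.253).

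**Figure D5:**
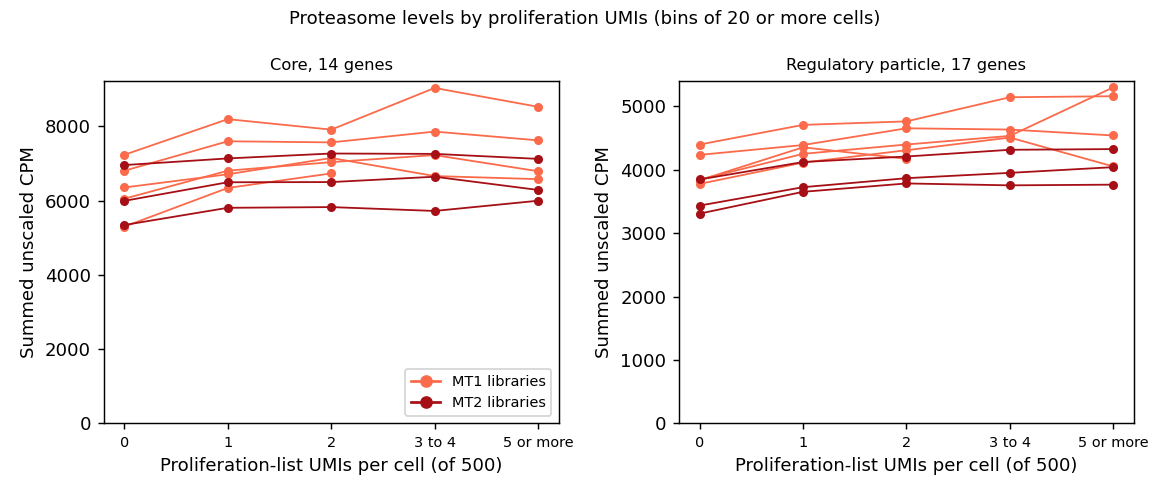
Summed unscaled CPM of the core and the regulatory particle in cells grouped by their number of proliferation-list UMIs out of 500, with 1 line for each MT1 (light) and MT2 (dark) library and bins of 20 or more cells. In all 8 libraries both sums are higher with 1 proliferation UMI than with 0, and beyond 1 UMI the lines go up or down by library, with the regulatory sum of MT1 replicate 3 at 4253 with 1 UMI and 5302 with 5 or more.

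Along the number of proliferation UMIs, both sums were higher at 1 UMI than at 0 in 8 of 8 tumor libraries. In MT1 replicate 3, for example, the core sum was 6054 unscaled CPM at 0 and 6809 at 1, and the regulatory sum was 3847 and 4253. Between 1 UMI and 5 or more, the core sum was higher in 2 of the 4 MT1 libraries with such cells and 1 of the 3 MT2 libraries. The regulatory sum was higher in 3 of 4 and 3 of 3. The bins are ranges of a sparse count and not cell cycle phases.

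Other genes of the pathway were read from lists chosen by function. The 8 assembly factors tested, of 9 listed, were called higher in both tumors, as were 18.4% of all genes, with median log2 changes of 1.87 and 1.51 against 0.11 and -0.05 over all genes. Psmd5, a chaperone of the base, had 16.9 and 10.2 CPM in MG1, 16.5 and 13.4 in MG2, 97.9, 73.0, 67.7, 81.7 and 75.1 in MT1, and 82.2, 112 and 92.0 in MT2. It rose by 2.37 (SE 0.25, adjusted p = 5.47e-07) and 2.67 (SE 0.22, adjusted p = 4.36e-09). Psmg2, a chaperone of the alpha ring, rose by 1.96 (SE 0.26, adjusted p = 5.03e-06) and 2.36 (SE 0.21, adjusted p = 1.25e-08). Of 12 proteins bound to the proteasome or regulating it, 6 were called higher (32.2% of all genes) and 1 lower (27.1%) in MT1, and 7 higher (32.8%) and 3 lower (34.2%) in MT2. The inhibitor gene Psmf1 rose by 2.10 (SE 0.27, adjusted p = 4.41e-06), on 25 UMIs in MG1 and with 1.44 (adjusted p = 0.00886) without MG1 replicate 1, and by 1.87 (SE 0.20, adjusted p = 2.27e-07), and the deubiquitinase gene Usp14 by 1.10 (SE 0.18, adjusted p = 4.49e-05) and 1.46 (SE 0.17, adjusted p = 5.31e-07).

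The immunoproteasome genes, whose products replace the catalytic subunits after interferon exposure, were called higher in MT1, 3 of 3, against 32.2% of all genes. Psmb8 rose by 1.64 (SE 0.21), Psmb9 by 2.28 (SE 0.27) and Psmb10 by 1.51 (SE 0.20). Psmb9 stood at 31.4 and 8.5 CPM in the MG1 libraries, and its change was 3.82 without MG1 replicate 1 and 1.95 without MG1 replicate 2. In MT2, Psmb10 rose by 1.86 (SE 0.18, adjusted p = 4.01e-08), Psmb9 fell by 0.64 (SE 0.23, adjusted p = 0.0221) and Psmb8 had a change of -0.09 (SE 0.20, adjusted p = 0.711). Over all genes tested, 32.8% were called higher and 34.2% lower in MT2. The Psmb9 call in MT2 was lost without MG2 replicate 2, MT2 replicate 1 or MT2 replicate 3. Psmb5, the constitutive counterpart of Psmb8, was not called in either mouse.

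Of the 4 genes that control transcription of the subunits, 0 were called higher and 1 lower in MT1, against 32.2% and 27.1% of all genes. In MT2, 1 was called higher and 3 lower, against 32.8% and 34.2% of all genes. Ddi2, the protease that activates the Nfe2l1 product, stood at 112 and 112 CPM in MG1, 148 and 152 in MG2, 38.9, 56.1, 42.2, 46.5 and 43.1 in MT1, and 26.6, 21.0 and 21.3 in MT2. All tumor libraries were below all gland libraries, and it fell by 1.31 on the log2 scale (SE 0.16, adjusted p = 2.68e-06) and by 2.70 (SE 0.16, adjusted p = 6.02e-11). Nfe2l1 had a change of -0.19 (SE 0.16, adjusted p = 0.34) in MT1 and fell by 0.66 (SE 0.17, adjusted p = 0.00238) in MT2. Ngly1, which deglycosylates the Nfe2l1 product, had -0.31 (SE 0.23, adjusted p = 0.26) and fell by 0.96 (SE 0.18, adjusted p = 0.000115). Nfe2l2 had -0.03 (SE 0.18, adjusted p = 0.918) in MT1, which turned to a called 0.56 (adjusted p = 0.0427) without MG1 replicate 1. It rose by 0.56 (SE 0.18, adjusted p = 0.00964) in MT2, lost without MG2 replicate 1 (0.51, adjusted p = 0.0978). Activity of these proteins was not measured.

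Ubb, a polyubiquitin gene, was called in both mice and in opposite directions, higher by 0.64 (SE 0.26, adjusted p = 0.0393) in MT1 and lower by 0.80 (SE 0.26, adjusted p = 0.0123) in MT2. The MT1 call was lost without MG1 replicate 2 (0.29, adjusted p = 0.366), MT1 replicate 1 (0.53, adjusted p = 0.0968), MT1 replicate 4 (0.38, adjusted p = 0.145), MT2 replicate 2 (adjusted p = 0.0677) or MT2 replicate 3 (adjusted p = 0.0734) and with DESeq2 (0.52, adjusted p = 0.0805). The MT2 call was lost without MG2 replicate 1 (-0.66, adjusted p = 0.116). Rps27a, which encodes ubiquitin fused to a ribosomal protein, passed the test in neither mouse.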

How the data were processed

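The authors deposited a table of unnormalized UMI counts, 1 column for each cell, made with the Drop-seq tools and STAR (version not given in the sources used here) against GRCm38.p6 per the labels. The lowest cell holds 800 genes and 1111 UMIs, pairs of libraries share 0 to 7 cell barcodes, and 0 columns lacked a sample. Whether counting used strand, or how it split reads between copies, is not given in the sources used here. Some genes of the ubiquitin list are not reported here. The members and gene lists were chosen with earlier results of these data known.

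Cells were clustered without the 34 subunits and the other listed pathway genes (65 genes), on 3000 variable genes, 30 components and 20 neighbours with leidenalg 0.10.2 at resolution 0.6 (Python 3.11.15). Clusters were named from marker lists, and 1132 cells of stromal clusters were left out of the library sums. No doublet caller was run; an alternative left out the 5% of cells with the most UMIs in each library. Sums per library were tested with edgeR 4.0.16 (TMM, its default low-count filter, quasi-likelihood F test, Benjamini-Hochberg adjustment, R 4.3.3), with all 12 libraries in 1 fit for the tumor and gland groups. Comparisons of classes or of proliferating cells within libraries had the library as a block and sums of 20 or more cells. The fit with the animal as replicate paired gland and tumor by the mouse given in the labels. Replicate numbers follow accession order and pair nothing. Every pair of libraries of 1 group differed beyond sampling noise (chi-square over its degrees of freedom 3.51 to 34.1), so each counted once. Library values are given for the catalytic and activator genes, Psmd4, Psmd14 and, in each sub-complex, the highest and lowest mean change over both mice. Alternatives were RLE scaling, DESeq2 1.42.0, no filter, other cells and clusterings, no block, and leaving out each library. The fits were tested on simulated data. Promoters come from RefSeq, and gene positions from GENCODE M21. Shares have exact intervals of 95%.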

Additional observations from a re-analysis of the deposited data

Results flagged for a closer look

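The change from gland to tumor differed between the mice, by the test of the difference itself (edgeR, adjusted p under 0.05 over all genes tested), for 14 of the 34 subunits (41.2%), against 43.6% of all genes. On the log2 scale, first mouse minus second, the differences of the core genes were 1.79 for Psma2, 1.29 for Psma4, 0.84 for Psmb1, 1.15 for Psmb2, 1.10 for Psmb3, 0.95 for Psmb6 and -1.56 for Psmb7. Those of the regulatory genes were 0.96 for Psmc2, -0.87 for Psmc3, 0.96 for Psmd3, 0.76 for Psmd6, 1.01 for Psmd8 and 1.03 for Psmd12, and that of the activator gene Psme1 was -0.56. Mouse and tumor cannot be told apart here, since each mouse gave 1 tumor. The change with proliferation differed between the tumors for Psmb4, by 0.27. Among the 34 groups of 5 MT1 libraries, none held a library set apart from the other 4 by Dixon's criterion, which chance alone exceeds in about 1 of 20 groups.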

How the results depend on the processing

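The counts of subunits called between gland and tumor moved little: leaving out 1 library gave 25 to 27 higher and 1 to 2 lower in MT1 against MG1, and 18 to 23 higher in MT2 against MG2. The 1 lower call came without MG1 replicate 2 and, as in the fit without the low-count filter (1), was Psme1. RLE scaling lowered the median of all genes from 0.11 to 0.00 in MT1 against MG1 and from 0.15 to -0.00 in the difference between the mice, where leaving out 1 library gave 9 to 13 subunits higher and 1 to 4 lower (1 without MG1 replicate 1). With the animal as replicate, edgeR called 0 with the replicate block (mouse) and 0 without it, and DESeq2 called 4. Gland classes depended on the settings. For hormone-sensing-like against secretory-like cells, leaving out 1 library gave 3 to 7 higher and 0 to 1 lower, no library block gave 2 higher and 0 lower, RLE, DESeq2 and no filter gave 0 lower, and cells below the proliferation threshold gave 1 lower. For basal-like cells, leaving out 1 library gave 0 to 14 lower than secretory-like and 9 to 17 lower than hormone-sensing-like cells, no library block gave 2 and 10, and DESeq2 and leaving out the cells with the most UMIs each gave 5 against secretory-like cells. In MT1, the 3 lower in mesenchymal-like cells became 1 with DESeq2, 1 with no library block, 1 below the proliferation threshold, 1 with clusters 3, 4 and 8 as epithelial side (where Psme2 turned to -0.07) and 1 to 3 without 1 library. For proliferating cells of MT1, leaving out 1 library gave 6 to 12 higher, no filter 4, no library block 1, 1 or more UMIs 22, 3 or more UMIs 5, thinned cells 4, and leaving out the mesenchymal-like cluster and gland classes 3 higher and 3 lower. In MT2, leaving out 1 library gave 0 to 3 higher and 0 to 3 lower, no filter 0 higher, no library block 0 and 0, 1 or more UMIs 4 higher, 3 or more UMIs 0 higher, thinned cells 1 and 1, and the added alternative 6 and 1. For the difference between the tumors, these were 1 to 2 higher, 0 with no library block, 4 with 1 or more UMIs, 0 with 3 or more UMIs, 2 without the cells with the most UMIs, and 0 higher and 1 lower with the added alternative. The cause of these shifts was not tested, other than that fewer libraries or cells entered the fits that left some out. The regulatory share in MG2 was 47.2% below the proliferation threshold, and without Psma7 the shares were 55.5% (MG1), 43.5% (MT1), 54% (MG2) and 48.6% (MT2), since fewer core UMIs enter them. Nfe2l2 in MT1 against MG1 ran from -0.31 (without MG1 replicate 2) to 0.56 (adjusted p = 0.0427, without MG1 replicate 1). Of 2704 values of named genes under an alternative, 2588 kept their call (or stayed uncalled, in either sign), 87 lost the call, 27 gained one and 2 turned in sign with a call on 1 side. The 73 cells of MG1 replicate 2 and the few UMIs of Psmb5, Psmb7, Psmd13 and Psme3 in MG1 limit what the first mouse can show for those genes.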
